A study of Rattus norvegicus with 48 samples.

Results

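Zbtb16 (ENSRNOG00000029980), the gene of the promyelocytic leukemia zinc finger protein PLZF, was examined in the left ventricle of the rat. It is 1 of 32883 genes for which reads had been counted, and its row was found by the Ensembl identifier that the study's tables pair with the symbol. The gene was chosen by its measured difference between methamphetamine- and saline-treated females at day 11, where the study's tables list it among the large changes, so its values in that comparison are given as a description. Sprague Dawley rats of both sexes, aged 8 weeks at the start, had been injected daily under the skin with saline or with methamphetamine, a psychostimulant, at 5 mg/kg for 10 days. Hearts were taken on day 11, the day following the final injection, or after 30 days of abstinence. The 8 groups were therefore F Sal, F Meth, M Sal and M Meth at day 11 and the same 4 with abstinence (abs), each of 6 rats, and all animals of every group had been injected. Saline-treated females at day 11 were represented by 5 libraries, as replicate 3 was not analysed here. Hearts had been flushed of blood by perfusion, and each library came from the heart of 1 rat.

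PLZF is a transcription factor that binds DNA through zinc fingers and recruits corepressors through its BTB domain, a fold that also links some proteins of this class to a ubiquitin ligase. It is known from stem cells of the testis, from natural killer T cells and from the development of the limbs and skeleton. In many cell types its transcription is induced by glucocorticoids acting through the glucocorticoid receptor, and in the heart it has been tied to signalling of the angiotensin II type 2 receptor. Per2 (ENSRNOG00000020254) encodes a repressor of the circadian clock, whose own transcription follows the time of day and also responds to glucocorticoids. The hearts had been taken at the same hours of the morning.

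All 8 libraries labelled replicate 5, 1 in each group, carried the transcripts of the other sex than their label. For 4 transcripts that were nearly absent in most libraries labelled female, the summed level in the 4 female libraries of replicate 5 was 86.9% to 118% of the median over the male labels, against 0% to 2.45% in the other 19 female libraries. In the 4 male libraries of replicate 5 it was 7.42% to 11.9%, against 74.8% to 116% in the other 20. Replicate 5 was therefore kept apart, and the values below rest on 39 libraries unless replicate 5 is named. Whether treatment and time in the labels of replicate 5 hold was not tested, and both are given below as labelled. Libraries held from 6661581 to 11314050 counts in all, of which Zbtb16 received between 42 and 749 counts. Levels are given as CPM, counts scaled to a common library size with the TMM factors of edgeR. In whole ventricle, fewer cells of a type and less RNA per cell cannot be told apart. Hearts of a time point were sequenced as 1 pool, so time and pool cannot be told apart.

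In females at day 11, Zbtb16 was at 66.7, 65.3, 65.1, 63.5 and 22.1 CPM in the 5 methamphetamine-treated hearts (replicates 1, 2, 3, 4 and 6). In the 4 saline-treated hearts it was at 10.8, 11.0, 10.6 and 18.3 CPM (replicates 1, 2, 4 and 6). The groups did not overlap, but the lowest methamphetamine-treated heart lay far below the other 4 and close to the highest saline-treated heart. The means were 56.5 ± 19.3 CPM (SD, n = 5) and 12.7 ± 3.78 CPM (SD, n = 4). The log2 fold change was 2.15 (SE 0.28), a 4.45-fold higher level, and no test is given because this contrast chose the gene. In the same contrast, 9.43% of 13986 genes passed edgeR's quasi-likelihood test, with a threshold of 0.1 on the p adjusted by the Benjamini-Hochberg method, 4.28% being higher and 5.16% lower. Myl4, an atrial myosin light chain, moved with this contrast, at 90.6, 37.1, 13.8 and 5.84 CPM in the saline-treated hearts (replicates 1, 2, 4 and 6) and at 2.96 to 5.62 CPM in the methamphetamine-treated ones. Zbtb16 was at 10.6 to 11.0 CPM in the 3 saline-treated hearts highest in Myl4, and at 18.3 CPM in the lowest. Ptprc, the pan-leukocyte gene CD45, was at 18.7 to 21.6 CPM under saline and 17.8 to 22.8 CPM under methamphetamine. The part of Myl4-bearing tissue in the result was not tested. With replicate 5 included, which held 13.8 CPM under methamphetamine and 12.9 CPM under saline, the log2 fold change was 1.96.

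**Figure D1:**
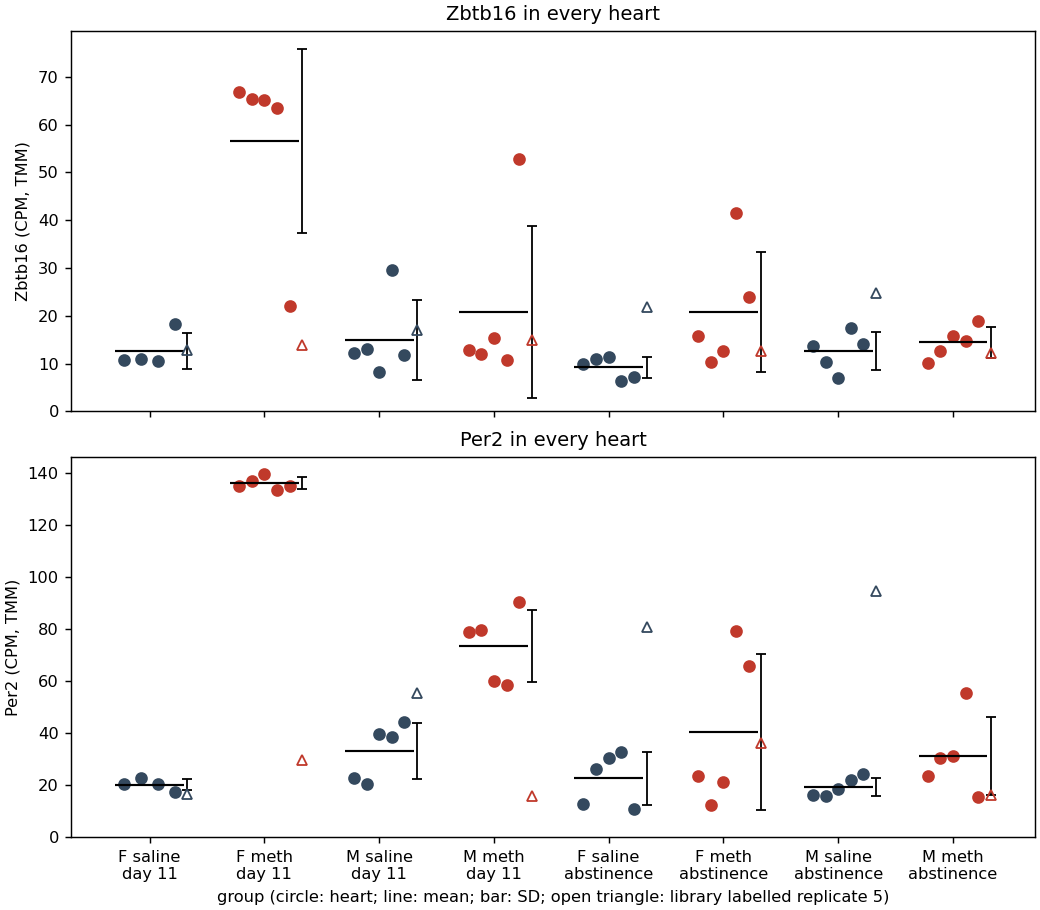
Zbtb16 (top) and Per2 (bottom) in CPM (TMM) in every library, by group. Circles are hearts, lines are means and bars are SDs without replicate 5, and open triangles are the libraries labelled replicate 5. In methamphetamine-treated females at day 11, Per2 lay between 134 and 140 CPM in all 5 hearts, whereas Zbtb16 lay between 63.5 and 66.7 CPM in 4 hearts and at 22.1 CPM in the other.

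The heart with 22.1 CPM of Zbtb16, replicate 6, did not stand apart in Per2. Its Per2 level was 135 CPM, within the range of 134 to 140 CPM over the group, and the CV of Per2 in this group was 1.71% against 34.1% for Zbtb16. Counting error alone would give Zbtb16 a CV of 4.10% there, and Per2 a CV of 2.63%, more than the 1.71% seen. The Poisson interval (95%, counting error only) of replicate 6 was 19.4 to 24.99 CPM, while that of the lowest of the other 4 hearts was 58.9 to 68.4 CPM. Arntl, the clock activator also called Bmal1, was at 1.501 CPM in replicate 6 and at 1.92 to 2.47 CPM in the other 4 hearts. These levels rest on 17 to 25 counts, and their CV of 17.5% was below the 21.9% that counting error alone gives. Tsc22d3, which encodes the glucocorticoid-induced leucine zipper GILZ, was at 133 CPM in replicate 6 and at 121 to 185 CPM in the other 4.

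In males at day 11, Zbtb16 was at 12.8, 12.1, 15.3, 10.8 and 52.8 CPM in the methamphetamine-treated hearts (replicates 1, 2, 3, 4 and 6). The saline-treated hearts held 12.3, 13.0, 8.19, 29.6 and 11.7 CPM in the same order of replicates. Each group had 1 high heart and 4 hearts in a shared low range, and the groups overlapped. The means were 20.8 ± 18.0 CPM and 14.97 ± 8.39 CPM (SD, n = 5 each). Zbtb16 did not pass the test in males (log2 fold change 0.44, SE 0.45, edgeR adjusted p = 0.582), where 6.54% of 13887 genes were called, 3.37% higher and 3.17% lower. The difference rested on replicate 6 of the methamphetamine-treated males, since the log2 fold change was -0.26 without it, and it was 0.84 without the high saline-treated heart, replicate 4. The study's table that led to this gene listed changes found in females and not in males, so the absence of a call in males is not independent of the choice. The labels number the rats in a lower and a higher series. All saline-treated males at day 11 belonged to the lower series and all methamphetamine-treated males to the higher, and series and treatment cannot be told apart. Whether the effect differed between the sexes at day 11 was not tested, because the effect in females chose the gene.

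In females after abstinence, Zbtb16 was at 15.8, 10.4, 12.6, 41.4 and 23.9 CPM in the methamphetamine-treated hearts (replicates 1, 2, 3, 4 and 6). The saline-treated hearts held 9.96, 10.9, 11.5, 6.43 and 7.27 CPM. Of the 5 methamphetamine-treated hearts, 4 were above every saline-treated heart, and replicate 2 lay within the saline-treated range. The means were 20.8 ± 12.6 CPM and 9.21 ± 2.24 CPM (SD, n = 5 each). The log2 fold change was 1.17 (SE 0.34, 2.25-fold), which did not pass the test over all genes (edgeR adjusted p = 0.994). In this comparison 0% of 13610 genes were called by edgeR and 20 by DESeq2, and 541 genes (3.98%) had an unadjusted p under 0.05 by edgeR, among which Zbtb16 held rank 53. Without replicate 4 of the methamphetamine-treated females, the log2 fold change was 0.77.

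The high hearts of this group were those of 1 series of rat numbers. The methamphetamine-treated hearts with 41.4 and 23.9 CPM belonged to the higher series, and the 3 lower ones to the lower series. Of the saline-treated hearts, replicate 1 belonged to the lower series and the other 4 to the higher. Within the lower series, the 3 methamphetamine-treated hearts ranged from 10.4 to 15.8 CPM against 9.96 CPM in the only saline-treated heart. Within the higher series, 23.9 and 41.4 CPM stood against 6.43 to 11.5 CPM in 4 saline-treated hearts, and the groups did not overlap. In a fit of the higher series alone, chosen after the values were seen, the log2 fold change was 1.84 (SE 0.27). Zbtb16 was called there (edgeR adjusted p = 0.0861), 1 of 23 genes called among 13943 tested. This call is not independent of the choice, since both high hearts belong to that series. With the series as a block over all 10 hearts, the log2 fold change was 1.37 (SE 0.29, edgeR adjusted p = 0.688). The libraries of replicate 5, both of the higher series, held 12.7 CPM (labelled methamphetamine) and 21.8 CPM (labelled saline). With them the log2 fold change was 0.81 (edgeR adjusted p = 0.997). Their labels did not hold for sex, so these values cannot show the direction of the effect.

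Markers of other cells moved within this group as well. Ptprc was at 24.6, 20.7, 74.5, 45.8 and 34.3 CPM in the methamphetamine-treated females after abstinence (replicates 1, 2, 3, 4 and 6), and at 19.7 to 24.0 CPM in the saline-treated ones. Myl4 was at 2.15, 6.67, 34.6, 24.2 and 7.04 CPM in the same hearts, against 1.92 to 4.60 CPM. The heart highest in both markers, replicate 3, was among the low ones for Zbtb16, with 12.6 CPM. The heart next in both, replicate 4, was the highest of the group for Zbtb16, with 41.4 CPM. The part of cells bearing Ptprc or Myl4 in the result was not tested. These 2 were the markers, of 32 listed for 8 cell types, that had an identifier here.

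In males after abstinence, Zbtb16 was at 10.1, 12.7, 15.8, 14.6 and 18.9 CPM in the methamphetamine-treated hearts. The saline-treated hearts held 13.7, 10.4, 7.08, 17.5 and 14.0 CPM. The ranges overlapped almost fully, and this was the only pair of groups without a heart above 20 CPM in either treatment. The means were 14.4 ± 3.32 CPM and 12.6 ± 3.96 CPM (SD, n = 5 each). The log2 fold change was 0.19 (SE 0.20, edgeR adjusted p = 0.997), in a comparison where 0.103% of 13621 genes were called, 0.0587% higher and 0.044% lower. Replicate 5 held 12.3 CPM in the library labelled methamphetamine and 24.8 CPM in that labelled saline, and with it the value was -0.067. As in females, these labels cannot show the direction of the effect. The effect in males at day 11 minus that after abstinence was 0.24 on the log2 scale (SE 0.55, edgeR adjusted p = 0.871), where 0.618% of 14081 genes were called, and it was -0.45 without replicate 6 of the methamphetamine-treated males at day 11.

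Ordered by the median over hearts, Zbtb16 was lowest in saline-treated females after abstinence (9.96 CPM) and saline-treated females at day 11 (10.9 CPM). Saline-treated males at day 11 (12.3 CPM), methamphetamine-treated males at day 11 (12.8 CPM), and saline-treated (13.7 CPM) and methamphetamine-treated males after abstinence (14.6 CPM) followed. Methamphetamine-treated females after abstinence (15.8 CPM) and at day 11 (65.1 CPM) were highest. Every group overlapped with its neighbour in this order, the last pair included, since 22.1 CPM in the highest group lay below 41.4 CPM in the group before it.

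Between saline-treated groups, neither difference tested passed the threshold. Saline-treated females after abstinence ranged from 6.43 to 11.5 CPM and males from 7.08 to 17.5 CPM, a log2 difference (females minus males) of -0.45 (SE 0.21, edgeR adjusted p = 0.249), where 9.21% of 13538 genes were called. Without replicate 3 of the saline-treated males, the value was -0.58 and the adjusted p of edgeR was 0.0959, which passes the threshold. Between saline-treated males at day 11 and after abstinence, the log2 difference was 0.26 (SE 0.30, edgeR adjusted p = 0.713), with 1.47% of 13717 genes called. It was -0.14 without replicate 4 at day 11, the heart with 29.6 CPM. For saline-treated males, the effects of time, pool, age and series of rat numbers cannot be told apart.

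Zbtb16 varied widely between hearts of the same group. The CV was 86.6% in methamphetamine-treated males at day 11, 60.5% in methamphetamine-treated females after abstinence and 56.0% in saline-treated males at day 11. In the other 5 groups it lay between 23.0% and 34.1%. Counting error alone gives 4.10% to 11.6%, less than the spread in every group. The highest heart of a group held 1.74 to 4.89 times the level of the lowest. The biological CV that edgeR fitted over the 8 groups was 0.404, above that of 99.6% of the 3010 genes with a mean count within 1.5 times that of Zbtb16, whose median was 0.0955. For Per2 it was 0.363, above 99.7% of 2592 genes of like mean count.

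High hearts were few, and of the 7 highest 1 was saline-treated. The 5 highest of the 39 held 52.8 to 66.7 CPM of Zbtb16, 4 of them methamphetamine-treated females and 1 a methamphetamine-treated male at day 11, and the next held 41.4 CPM. In these 5 hearts Per2 was at 90.4 to 140 CPM, and 1 of the other 34 hearts had as much Per2, the heart of 22.1 CPM described above. The 7 highest also took in replicate 4 of the methamphetamine-treated females after abstinence and replicate 4 of the saline-treated males at day 11, which had Per2 at 79.5 and 38.4 CPM. Of the other 32 hearts, 9 had a Per2 level of 38.4 CPM or more, and Zbtb16 was at 8.19 to 23.9 CPM in them. The level of 38.4 CPM is the lowest Per2 of the 7 hearts highest in Zbtb16, so all 7 reach it by definition. Of these, 4 are the females at day 11 whose contrast chose both genes. A Per2 level in that range also went with low Zbtb16, as in the methamphetamine-treated males at day 11. Per2 was at 78.9, 79.7, 60.03 and 58.6 CPM in the 4 hearts with 10.8 to 15.3 CPM of Zbtb16, and at 90.4 CPM in the heart with 52.8 CPM.

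**Figure D2:**
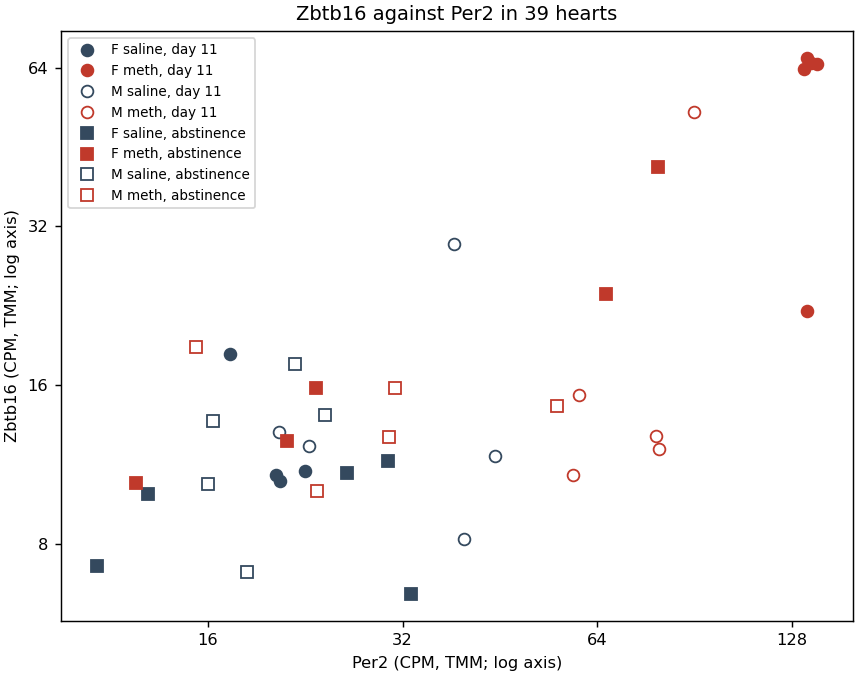
Zbtb16 against Per2, both in CPM (TMM) on log axes, in the 39 hearts without replicate 5. Filled symbols are females, open symbols males, circles day 11, squares abstinence, red methamphetamine and dark blue saline. The 5 hearts at the top held 52.8 to 66.7 CPM of Zbtb16 with 90.4 to 140 CPM of Per2, and 4 methamphetamine-treated males with 58.6 to 79.7 CPM of Per2 stayed at 10.8 to 15.3 CPM of Zbtb16.

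Over all 39 hearts, Pearson's r of Zbtb16 and Per2 in log2 CPM was 0.726, which holds the differences between groups that chose both genes and is given without a test. The relation within groups was taken from values centred on the group means. Over the 20 hearts after abstinence, which the choice of the genes did not use, r was 0.559 (permutation p = 0.0466, adjusted over 2 relations 0.0466). Spearman's rank correlation was 0.522 (permutation p = 0.0482, adjusted 0.0697), and both came from 100000 two-sided permutations within groups. The other relation in the adjustment, that over all 39 hearts, contains these 20 hearts and those of females at day 11. The adjustment left the p of r unchanged and is no independent check. Without the 2 hearts farthest from the median of Per2, replicates 4 and 6 of the methamphetamine-treated females, r was 0.145 (permutation p = 0.568), so the relation rested on these hearts. Centred on the series of rat numbers as well, it was 0.365 (permutation p = 0.141). With replicate 5 it was 0.699 over 24 hearts (permutation p = 0.00091). This last value cannot be read as a check, since it centres replicate 5 on groups whose sex label did not hold. Its saline-labelled male and female libraries held 24.8 and 21.8 CPM of Zbtb16 and 94.7 and 81.0 CPM of Per2. Both lay above every other heart of their labelled group in both genes. Over all 39 hearts the centred r was 0.366 (permutation p = 0.0382, adjusted 0.0466) and the rank correlation was 0.328 (permutation p = 0.0697, adjusted 0.0697), and this value includes the hearts of females at day 11.

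The libraries of replicate 5 showed the 2 genes side by side in their own way. By label, Zbtb16 was highest in saline-treated males (24.8 CPM) and saline-treated females (21.8 CPM) after abstinence, whose Per2 was at 94.7 and 81.0 CPM. It was at 17.0 CPM in saline-treated males at day 11, with Per2 at 55.5 CPM. In the other 5 libraries Zbtb16 lay between 12.3 and 14.99 CPM and Per2 between 15.99 and 36.4 CPM. None of these 8 libraries reached the 41.4 CPM of the sixth highest heart above.

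Genes known to respond to glucocorticoids were few among the named ones. Of 30 listed, Tsc22d3, Glul, Cdkn1a and Foxo1 had an identifier, and all 4 came from the list that the study drew from these samples for changes in females and not in males at day 11. Their calls at day 11 are therefore fixed in part by that choice. In females at day 11, 2 of the 4 were called higher and 2 lower, where 9.43% of all genes were called, with a median log2 fold change of -0.03 against a median near 0 over all genes tested. The log2 fold change was 0.76 (SE 0.13) for Tsc22d3 and 0.53 (SE 0.08) for Glul, the glutamine synthetase gene. It was -1.89 (SE 0.18) for Cdkn1a, the gene of the cell cycle inhibitor p21, and -0.58 (SE 0.11) for Foxo1, a transcription factor of catabolic programmes. In males at day 11, where 6.54% of all genes were called, Glul was the member called, at a log2 fold change of 0.34 (SE 0.09, edgeR adjusted p = 0.0642), and Tsc22d3 was at 0.27 (SE 0.18, edgeR adjusted p = 0.386). After abstinence 0 of the 4 were called in either sex, against 0% of all genes in females and 0.103% in males, and Tsc22d3 was at 0.40 (SE 0.15) in females and 0.08 (SE 0.10) in males.

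Tsc22d3 did not follow Zbtb16 in every male group. In methamphetamine-treated males at day 11 it was at 121, 124, 76.2, 96.5 and 142 CPM, highest in replicate 6, the heart with the most Zbtb16. In saline-treated males at day 11 it was at 67.8, 73.9, 124, 110 and 88.4 CPM, and replicate 3, its highest heart, had the lowest Zbtb16 of the group (8.19 CPM). Its r with Zbtb16 was 0.676 over the 39 hearts and 0.259 when centred on group means.

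**Figure D3:**
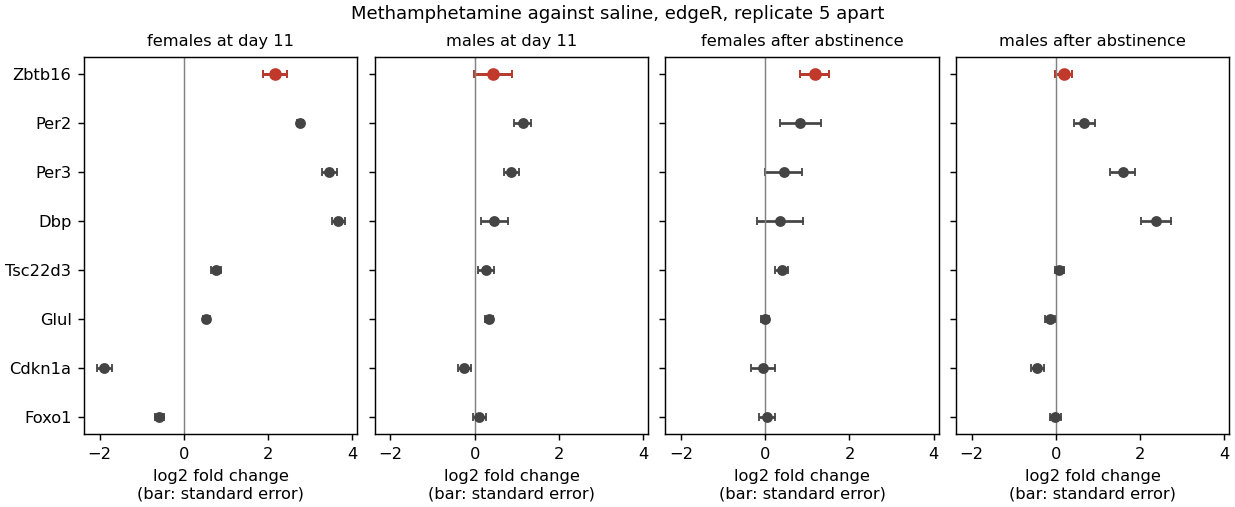
Log2 fold changes (points) with standard errors (bars) of methamphetamine against saline, from edgeR without replicate 5, for Zbtb16 (red), 3 clock genes and the 4 glucocorticoid-responsive genes that had an identifier. Zbtb16 was at 2.15 in females at day 11, 0.44 in males at day 11, 1.17 in females after abstinence and 0.19 in males after abstinence, and of these the first contrast chose the gene.

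The other lists held little that could be matched. None of 10 genes of the glucocorticoid receptor and its handling and none of 15 partners of the PLZF protein had an identifier. Of 28 other BTB zinc finger genes 1 did, Bcl6b, a repressor found in endothelial cells. It had an identifier through the same list for females at day 11, and its values there are a description. Its log2 fold change at day 11 was -0.91 (SE 0.12) in females and -0.53 (SE 0.10) in males, and it was not called after abstinence (log2 fold changes -0.14 in females and -0.30 in males).

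Of 17 clock and D-box genes, 12 had an identifier, 9 of them from the list for females at day 11. The other 3 (Cry1, Nr1d1 and Nfil3) came from the study's table of changes after abstinence, which lists them for males. In females at day 11, 7 were called higher and 4 lower, against 9.43% of all genes, which that list fixes in part. The log2 fold change was 2.75 (SE 0.07) for Per2, 3.45 (SE 0.18) for Per3, 3.66 (SE 0.16) for Dbp, a transcription factor whose own level follows the clock, and -5.12 (SE 0.15) for Arntl. In males at day 11, 4 rose and 2 fell, against 6.54% of all genes, among them Per2 by 1.14 (SE 0.20, edgeR adjusted p = 0.0216), in hearts where Zbtb16 was not called. After abstinence in males, 4 were called higher and 2 lower, against 0.103% of all genes. These took in the 3 from the table after abstinence, which lists them for this same comparison and so fixes the count in part. Dbp was higher by 2.38 (SE 0.36, edgeR adjusted p = 0.0293), Per2 was at 0.68 (SE 0.26, edgeR adjusted p = 0.715) and Zbtb16 at 0.19. After abstinence in females, 0 of the 12 were called, as were 0% of all genes, and Per2 was at 0.84 (SE 0.48, edgeR adjusted p = 0.994) beside 1.17 for Zbtb16.

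The gene whose pattern over the 39 hearts was most like that of Zbtb16 was Rhobtb1, with an r of 0.836 in log2 CPM, the highest of 14457 genes. Rhobtb1 encodes a GTPase-related protein that carries BTB domains. Its level was 210, 259, 203, 249 and 167 CPM in methamphetamine-treated females at day 11, lowest in replicate 6 like Zbtb16, and 39.8 to 52.0 CPM in the saline-treated ones. In methamphetamine-treated females after abstinence it was at 153 and 113 CPM in replicates 4 and 6 and at 47.5 to 52.4 CPM in the other 3. In methamphetamine-treated males at day 11 it was highest, at 150 CPM, in replicate 6. The hearts that stood high in Zbtb16 in these 3 groups were also the highest in Rhobtb1. This is a description, since Rhobtb1 was chosen by its r over these same hearts.

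The next named genes were Anks1a, an adaptor of receptor tyrosine kinases (r = 0.791), Rapgef5, an exchange factor for Rap GTPases (0.759), and Aco1, the cytosolic aconitase that also acts as an iron sensor (0.758). Fam46b (0.741), Ahnak, a very large scaffold protein (0.740), Rere, a nuclear corepressor (0.737), Acot11, an acyl-CoA thioesterase (0.737), and Usp2, a deubiquitinase (0.735), completed the 9 genes given here of the 10 named genes with the highest r. Lowest were Calhm5, of a family of ion channels (-0.804), Btnl9 (-0.748), Tmem140 (-0.747), Cx3cl1, the chemokine fractalkine (-0.738), and Eepd1 (-0.721). Per2 held rank 23 and Tsc22d3 rank 49. All 14 came from the study's list of changes in females at day 11, since symbols could be given to 328 genes alone, and 8 genes without a symbol stood among the highest and 3 among the lowest. The hearts share groups, pools and litters, and the values are descriptions.

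Centred on group means, the order changed. Anks1a had the highest r of all genes (0.740) and Calhm5 the lowest (-0.752). Rhobtb1 was at 0.626, which gave it rank 87, and Per2 at 0.366, which gave Per2 rank 2125. Acot11 was at 0.663 and Usp2 at 0.627. With the 9 hearts of females at day 11 left out, r over the other 30 hearts was 0.742 for Anks1a, 0.653 for Rhobtb1, 0.504 for Per2 and -0.645 for Calhm5.

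**Figure D4:**
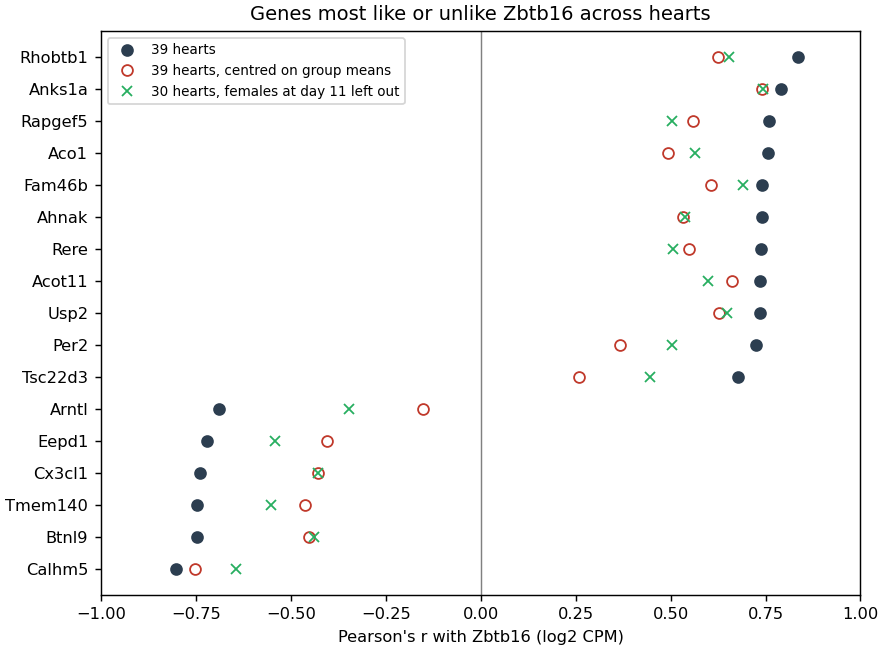
Pearson's r with Zbtb16 in log2 CPM for 9 of the 10 named genes with the highest r and the 5 with the lowest, and for Per2, Tsc22d3 and Arntl. Filled circles are r over 39 hearts, open circles the same after centring on group means, and crosses r over 30 hearts without females at day 11. Anks1a and Calhm5 moved little with centring (0.791 to 0.740 and -0.804 to -0.752), while Per2 went from 0.726 to 0.366.

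Promoters of the genes that moved with Zbtb16 are shown for Per2, the clock gene of the comparison, and Rhobtb1, the gene most like Zbtb16. Both are the 250 bases before the start of the gene in RefSeq on GRCr8, a later build than that of the counts, at chr9:99496994-99497243 and chr20:19402058-19402307, each on the minus strand. Capitals mark a D-box (TTATGNAA) in Per2 and an E-box (CACGTG) in Rhobtb1, the elements bound by D-box factors such as the Dbp protein and by the clock activators.
Per2: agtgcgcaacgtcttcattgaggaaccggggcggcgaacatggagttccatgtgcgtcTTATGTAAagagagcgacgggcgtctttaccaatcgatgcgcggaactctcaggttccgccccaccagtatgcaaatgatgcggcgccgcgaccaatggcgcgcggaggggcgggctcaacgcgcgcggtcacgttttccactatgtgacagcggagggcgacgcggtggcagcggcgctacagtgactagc
Rhobtb1: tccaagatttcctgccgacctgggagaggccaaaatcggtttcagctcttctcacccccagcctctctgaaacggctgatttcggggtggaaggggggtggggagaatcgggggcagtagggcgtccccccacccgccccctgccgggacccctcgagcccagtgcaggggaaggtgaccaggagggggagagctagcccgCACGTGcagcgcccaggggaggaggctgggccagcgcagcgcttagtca

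Searched on both strands in the promoters of 15 of the genes named here, the E-box was found in 2 (Rhobtb1 and Acot11) and in 5.59% of 33469 promoters of the same length. The D-box was found in 1 of the 15 (Per2) and in 3.28% of all, and the ROR element AGGTCA in 3 (Usp2, Eepd1 and Btnl9) and in 14.1% of all. The glucocorticoid response element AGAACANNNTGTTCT was found in 0 of the 15 and in 0.0120% of all promoters. Its looser form GNACANNNTGTNC, which contains it, was found in 0 and in 0.373%. Zbtb16 had no entry among these promoters, so its own was not searched for any of these elements. A match is a description of letters, and the lack of one says only that these letters are not in this window.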

How the data were processed

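RNA of the left ventricle was sequenced by the authors, and 47 libraries of 48 rats were analysed here. Per the study's methods and processing notes, Trimmomatic 0.38 trimmed the reads, HISAT2 2.1.0 aligned them to Rnor_6.0, and the authors assigned them to Ensembl genes with GenomicAlignments and used DESeq2 1.20.0. The kit marks the strand, but whether counting used it is not given in the sources used here. The authors deposited the whole-number count of each gene, and a normalized signal, which the authors made by dividing the counts by 1 size factor per library, used here for alternatives only.

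Groups followed the labels, and replicate 5 was kept apart. The test on counts was the quasi-likelihood test of edgeR 4.0.16, run in R 4.3.3 (TMM, default filterByExpr, each comparison on its own groups, Benjamini-Hochberg adjustment over all genes tested, called under 0.1), after a trial on simulated data. Correlations were computed on log2 CPM (prior count 2) in Python 3.11.15. Alternatives were DESeq2 1.42.0, limma 3.58.1 (voom with quality weights, or log2 signal with a pseudocount of 1 or 0.1), 1 fit of all groups, RLE factors, other filters, an adjusted p under 0.05, replicate or series blocks, exact permutation tests, replicate 5 kept, and each library left out. The fit of 1 series alone, the centring on series and the alternatives for the comparisons of saline-treated hearts were added after the values were seen. The gene, the lists and the tests were chosen with earlier results of these data known.

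Named genes were Zbtb16 and Per2, members of the lists that were called or had the smallest p, and the named genes of highest and lowest r with Zbtb16, of which 1 is not reported here. Rhobtb1, Anks1a and Calhm5 were described further after their values were seen. Symbols came from the study's tables (328 genes). The reference at hand matched 0 of the Ensembl identifiers and is of another build. Its promoters were found by symbol, and Zbtb16 had none there, so positions of Zbtb16 are not given. The columns of the authors' comparisons in the tables were not used. Intervals of levels are exact Poisson intervals (95%) and cover counting error only. Each of the 115 within-group pairs of libraries had a chi-square of at least 2.31 per degree of freedom, above sampling noise. The study spread its litters over the groups, and no source ties a replicate number to a litter.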

Additional observations from a re-analysis of the deposited data

Results flagged for a closer look

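Within 4 of the 8 groups, 1 heart stood far from the others in Zbtb16 by a gap test on the lowest and highest heart of a group (Dixon's test), without replicate 5. They were replicate 6 of the saline-treated females at day 11 (18.3 CPM, against 10.6 to 11.0 CPM), replicate 6 of the methamphetamine-treated females at day 11 (22.1 CPM, against 63.5 to 66.7 CPM), replicate 4 of the saline-treated males at day 11 (29.6 CPM, against 8.19 to 13.0 CPM) and replicate 6 of the methamphetamine-treated males at day 11 (52.8 CPM, against 10.8 to 15.3 CPM). All 4 were at day 11, and 3 of the 4 stood above their group. Chance flags about 1 in 20 groups if values are normally distributed, but the test was run on CPM without a log. The groups of females at day 11 are also those that chose the gene. Of other genes only Per2 was put to this test, so the number of flags is a description. The same test marked 0 of the 8 groups for Per2.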

How the results depend on the processing

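Zbtb16 itself kept its direction and its side of the threshold under most alternatives. In females at day 11 its log2 fold change was 1.96 to 2.16 under 11 alternatives and 2.07 to 2.39 with each library left out. In males at day 11 it was 0.02 to 0.47 under 12 alternatives without a call, and -0.26 (without methamphetamine replicate 6) to 0.84 (without saline replicate 4). In females after abstinence it was 0.81 to 1.84. The gene was called with the higher series alone (1.84), a fit chosen after the values were seen. It passed the exact permutation test of the mean log2 CPM (difference 1.01, exact permutation p = 0.0238). That p is for this gene alone, unadjusted and held against 0.05, and the test took no account of the series. With each library left out, the log2 fold change was 0.77 (without methamphetamine replicate 4) to 1.33 (without methamphetamine replicate 2), with adjusted p-values of edgeR of 0.276 to 0.9998. In males after abstinence it was -0.067 with replicate 5 kept, and 0.05 to 0.33 with each library left out. The effect in males at day 11 minus that after abstinence was -0.093 with voom quality weights, and -0.45 to 0.66 with each library left out. The comparisons of saline-treated hearts ranged from -0.58 to -0.31 between the sexes and from -0.14 to 0.41 between the time points. The cause was not tested for any of these.

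The number of genes called moved more. In females at day 11 (1319) it was 581 with replicate 5 kept, 839 in 1 fit of all groups, and 990 to 1411 with each library left out. In males at day 11 (908) it was 0 with replicate 5 kept, 1500 with DESeq2, 1707 with voom quality weights, 509 with limma on the signal without a filter, 206 at an adjusted p under 0.05, and 153 (without methamphetamine replicate 2) to 1442 (without saline replicate 3). In females after abstinence (0) it was 20 with DESeq2, 163 in 1 fit of all groups, 2 with limma on the signal without a filter, 23 with the higher series alone, and 0 to 0 with each library left out. In males after abstinence (14) it was 0 with replicate 5 kept, 68 with DESeq2, 5 in 1 fit of all groups, 27 without a filter, 77 with voom quality weights, 6 with limma on the signal without a filter, 8 at an adjusted p under 0.05, and 2 (without saline replicate 4) to 62 (without methamphetamine replicate 6). For the effect in males at day 11 minus that after abstinence (87) it was 21 with replicate 5 kept, 266 with DESeq2, 214 with voom quality weights, 47 with limma on the signal without a filter, 37 at an adjusted p under 0.05, and 32 to 108 with each library left out.

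The replicate numbers did not pair the hearts, since deviations of same-numbered hearts correlated at -0.474 to 0.148. With the replicate block, 30 genes were called in males after abstinence, Zbtb16 was called in no comparison tested, and the centred r of Zbtb16 and Per2 was 0.501 after abstinence (permutation p = 0.0679, with a rank correlation of 0.552, permutation p = 0.0390) and 0.312 over all hearts (permutation p = 0.0791). Centred on series as well, these were 0.365 and 0.248 (permutation p = 0.141 and 0.121). With each heart left out they were 0.381 to 0.684 and 0.238 to 0.430, lowest without replicate 4 of the methamphetamine-treated females after abstinence. The permutation p stayed under 0.05 in 7 of these 20 cases after abstinence, and in 30 of 39 over all hearts. The relation after abstinence was 0.145 without the 2 hearts farthest in Per2. With 42 counts in the lowest library, depth limited no level of Zbtb16 as much as the spread between hearts did.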

Other observations

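In the libraries of replicate 5, Rhobtb1 and Tsc22d3 were highest in the pair of libraries that were highest in Zbtb16. Rhobtb1 was at 155 and 145 CPM and Tsc22d3 at 101 and 114 CPM in the saline-treated male and female libraries after abstinence, which had the most Zbtb16 (24.8 and 21.8 CPM). In the library labelled methamphetamine-treated female at day 11, Zbtb16 was at 13.8, Rhobtb1 at 61.1, Tsc22d3 at 69.6 and Arntl at 60.7 CPM, and in the one labelled methamphetamine-treated male at day 11 they were at 14.99, 50.0, 68.5 and 51.2 CPM.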
